A study of Homo sapiens with 36 samples.

Results

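The transcription factor ATF4 and the genes of the unfolded protein response were read in A549 cells exposed to cigarette smoke extract (CSE). The list held 36 genes: 7 transcription factors, 6 stress effectors and feedback genes, 9 enzymes of amino acid and one-carbon metabolism, 4 amino acid transporters, 7 chaperones and folding factors of the endoplasmic reticulum (ER), and 3 genes of ER-associated degradation. A gene was read from the transcript cluster that carried its symbol alone, and where it had several, from that of the highest mean level across the 36 arrays. In this way 35 of the 36 genes were read, among 18417 genes that could be named and 33297 transcript clusters on the array. CBS had its probes only on a cluster shared with another symbol and was not read. ATF4, PSPH and MTHFD2 had several clusters of their own, and the other 32 genes had 1.

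A549 is an established line from a human lung adenocarcinoma, used as a model of the alveolar epithelium, and the study asked what cigarette smoke does to the gene expression of such cells. RNA was hybridized to 36 whole-transcript arrays in 12 groups of 3. Controls and cells under CSE at 1%, 5% and 10% were each taken after 1, 3 and 5 weeks. All cells, controls included, were kept in medium with little serum after a day without serum, the CSE medium was renewed every day, and the cells were subcultured every week. The replicates are described as independent experiments, and 3 arrays per group limit the precision of each value. The labels of the 5-week controls conflict, since titles and short codes give 5 weeks while 3 weeks stand in the descriptions and in the source names of all but replicate 3. They are used here as 5-week controls. The log2 values of these 3 arrays also had a narrower spread than those of the other 33, with an SD of 2.15 to 2.21 against 2.25 to 2.31. Of the marker genes read to check the line, 5 epithelial genes had mean log2 levels from 9.95 (EPCAM) to 13.4 (KRT8), and 7 genes of alveolar type II cells ran from 5.50 (LAMP3) to 8.57 (ABCA3). The type II genes had group medians of 6.10 to 6.37, below the array medians of 6.72 to 6.91. Leukocyte, endothelial and fibroblast markers stayed between 3.86 (LUM) and 7.67 (COL1A1).

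When misfolded proteins gather in the ER, the sensors PERK, IRE1 and ATF6 start the unfolded protein response. PERK, and its sister kinases that sense amino acid shortage, haem shortage or viral RNA, phosphorylate the initiation factor eIF2alpha. This slows protein synthesis but favours translation of the ATF4 mRNA, and ATF4 then raises genes of amino acid supply and of the stress response. IRE1 splices the XBP1 mRNA, and ATF6 is cut free in the Golgi by the site-1 and site-2 proteases, after which both factors raise chaperones and degradation genes. The arrays read mRNA of a whole culture, so neither the ATF4 protein nor the spliced form of XBP1 was measured, and a change in each cell could not be told apart from a change in the share of cells.

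The promoters of these genes carry short elements for these factors, and 4 are shown because they stand for the main arms of the response. Windows from 250 bases before to 50 bases after the start site were taken from RefSeq (GRCh38.p14) and searched on both strands. The elements were the ER stress response element (ERSE, CCAAT and CCACG with any 9 bases between them), ERSE-II (ATTGG and CCACG with any base between them), the unfolded protein response element (UPRE, TGACGTGG) and the C/EBP-ATF response element (CARE, TGATGNAA). Windows were found for 32 of the 36 genes (47 windows), and NUPR1, PSPH, SHMT2 and ALDH1L2 had none. HSPA5, the main ER chaperone BiP, has an ERSE 66 bases upstream of its start, and HERPUD1, which brings misfolded proteins to the degradation machinery, has an ERSE-II 117 bases and a CARE 176 bases upstream. ASNS, asparagine synthetase, and CHAC1, which degrades glutathione, have a CARE at 68 and 209 bases upstream. The capitals below mark these elements.
HSPA5 (chr9:125241294-125241593, minus strand): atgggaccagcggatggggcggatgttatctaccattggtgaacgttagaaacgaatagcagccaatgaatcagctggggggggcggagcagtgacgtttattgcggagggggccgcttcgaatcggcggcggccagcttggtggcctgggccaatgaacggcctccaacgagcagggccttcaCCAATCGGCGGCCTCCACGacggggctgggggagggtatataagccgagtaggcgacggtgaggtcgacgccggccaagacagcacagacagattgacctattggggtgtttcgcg
HERPUD1 (chr16:56931892-56932191, plus strand): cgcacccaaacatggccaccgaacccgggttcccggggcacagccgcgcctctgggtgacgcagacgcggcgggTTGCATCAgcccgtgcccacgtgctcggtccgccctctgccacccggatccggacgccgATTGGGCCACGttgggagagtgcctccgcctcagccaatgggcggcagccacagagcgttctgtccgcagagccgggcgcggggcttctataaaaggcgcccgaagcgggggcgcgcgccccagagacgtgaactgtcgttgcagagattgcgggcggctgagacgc
ASNS (chr7:97872359-97872658, minus strand): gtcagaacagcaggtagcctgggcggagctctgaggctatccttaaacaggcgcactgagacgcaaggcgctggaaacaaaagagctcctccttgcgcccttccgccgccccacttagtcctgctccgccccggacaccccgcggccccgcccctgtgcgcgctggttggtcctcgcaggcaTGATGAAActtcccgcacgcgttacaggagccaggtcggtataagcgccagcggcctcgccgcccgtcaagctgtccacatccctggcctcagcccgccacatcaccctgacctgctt
CHAC1 (chr15:40953221-40953520, plus strand): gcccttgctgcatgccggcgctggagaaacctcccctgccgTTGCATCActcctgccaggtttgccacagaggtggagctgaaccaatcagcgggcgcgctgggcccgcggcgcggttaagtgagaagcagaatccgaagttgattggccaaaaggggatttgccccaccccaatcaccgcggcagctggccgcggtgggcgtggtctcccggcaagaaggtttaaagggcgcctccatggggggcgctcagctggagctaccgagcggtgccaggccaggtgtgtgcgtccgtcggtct
An ERSE was found in the windows of HSPA5, XBP1 and CRELD2 and in 0.077% of all 35116 windows. An ERSE-II was found in those of HERPUD1, HYOU1 and SDF2L1 (0.054% of all windows), a UPRE in that of HYOU1 (0.729%), and a CARE in those of ASNS, CEBPG, CHAC1, HERPUD1, SLC3A2 and SLC7A1 (3.617%). A match of letters is a description and not a bound site.

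At 1 week more of these genes were higher than lower with CSE 5% and 10%, while CSE 1% changed few, among them PPP1R15A (1.24) and ALDH1L2 (-1.03). With CSE 10%, 17 of the 35 genes were higher than in control cells and 4 were lower at an adjusted p under 0.05 (limma, adjusted over all clusters), where 8.27% of all clusters were higher and 8.44% lower. With CSE 5%, 10 were higher and 4 lower, against 5.99% and 4.84% of all clusters, and with CSE 1%, 2 were higher and 4 lower, against 3.41% and 1.90%. Under the study's stricter thresholds, a log2 fold change beyond 1 and B (limma's log-odds that a gene changed) above 0, the count was 4 at 10% (1.52% of all clusters), 3 at 5% (0.895%) and 2 at 1% (0.324%). The 35 genes had a median log2 fold change of -0.12 at 1%, 0.17 at 5% and 0.32 at 10%, beside -0.03, -0.03 and -0.02 for all clusters. By role, the higher genes at 10% were 6 of 8 enzymes, 4 of 6 stress effectors, 3 of 4 transporters, 2 of 3 degradation genes (EDEM1 and SEL1L), 1 of 7 transcription factors (NUPR1) and 1 of 7 chaperones (DNAJB9). With each array centred on the changes of housekeeping genes the 1% comparison had 2 higher and 9 lower genes. Without CSE replicate 1 of 1 week the count of changed genes was 3 at 1%, and without CSE replicate 1 it was 8 at 5%.

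At 3 weeks most of the changes were decreases, at every concentration. With CSE 1%, 1 gene was higher and 19 lower (5.67% and 5.81% of all clusters). With CSE 5% the counts were 1 and 21 (9.70% and 9.93%), and with CSE 10% they were 3 and 22 (14.0% and 12.5%). The stricter thresholds left 3, 5 and 6 genes at 1%, 5% and 10%, against 0.748%, 1.74% and 2.50% of all clusters. The median of the 35 genes was -0.29, -0.38 and -0.36, and that of all clusters -0.004, -0.04 and 0.01. Of the 17 genes that were higher with CSE 10% at 1 week, 10 were lower at 3 weeks, 4 did not pass and 3 were higher again (STC2, DNAJB9 and SLC38A2). The housekeeping centring left 1 higher and 9 lower genes at 1%, 4 and 17 at 5% and 6 and 17 at 10%, and without control replicate 2 of 3 weeks the count at 1% fell to 11.

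At 5 weeks the decreases stayed in the majority, but they were in the majority among all clusters as well. The counts of higher and lower genes were 4 and 22 at CSE 1% (20.3% and 33.5% of all clusters), 9 and 19 at CSE 5% (23.0% and 40.3%) and 10 and 18 at CSE 10% (21.9% and 39.6%). The higher genes made up 11.4%, 25.7% and 28.6% of the list at 1%, 5% and 10%, under the share of all clusters at 1% and near it at 5% and 10%. Under the stricter thresholds 2, 6 and 9 genes were left, against 4.02%, 9.15% and 9.08% of all clusters. The median of the 35 genes was -0.33, -0.35 and -0.27, and that of all clusters -0.14, -0.17 and -0.17. At 10% the higher genes were STC2, ASNS, PSAT1, PSPH, SLC38A2, CEBPG and the ER genes DNAJB9, DNAJC3, EDEM1 and SEL1L, and this list rested on the 5-week controls. The other cluster of PSPH did not pass at 10% (0.25). MTHFD2 counted as lower at 5% and 10%, but its other cluster did not pass (-0.22 and -0.18). Against the week-3 controls, a baseline added after seeing the data, 0 genes were higher and 22 lower at 1%, 2 and 21 at 5%, and 4 and 19 at 10%. Against the 6 controls of weeks 1 and 3 the counts were 0 and 30, 0 and 26, and 2 and 26, a baseline that includes the 1-week controls, in which 19 of the 35 genes stood higher than at 3 weeks.

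**Figure D1:**
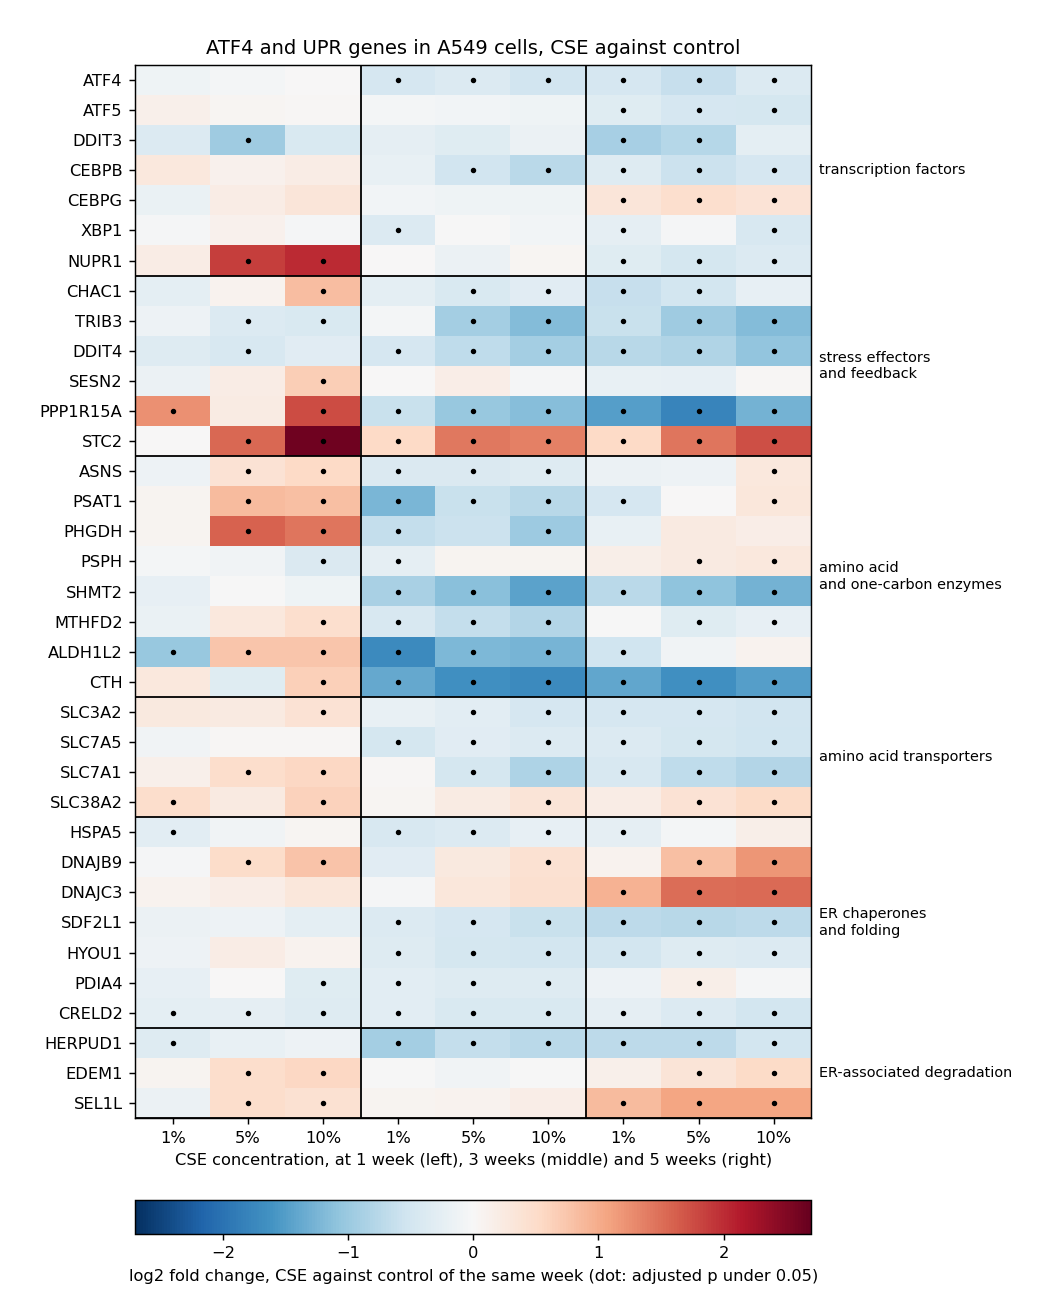
Log2 fold change of 35 ATF4 and unfolded protein response genes (rows, by role) with CSE 1%, 5% and 10% against the control of the same week, at 1, 3 and 5 weeks (columns), with a dot at an adjusted p under 0.05. NUPR1, STC2 and PHGDH are red at 5% and 10% in week 1, most rows are blue at 3 weeks, and STC2 stays red in every later column.

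The control cells themselves changed with time in culture. From 1 to 3 weeks, 19 of the 35 genes were lower in control cells and 2 (PDIA4 and SDF2L1) were higher, where 5.27% of all clusters were lower and 6.23% higher. The median difference of 3 weeks from 1 week was -0.43 in the 35 genes and -0.02 in all clusters. DDIT3 was lower by a log2 difference of -2.03 (standard error 0.17, limma adjusted p = 5.3e-10), PHGDH by -1.99 (0.21, 6.3e-08) and STC2 by -1.98 (0.16, 2.0e-10). CHAC1 (-1.85), ASNS (-1.58), PSAT1 (-1.52), SESN2 (-1.52) and DDIT4 (-1.31) also passed the test. These are targets of ATF4 in amino acid and stress responses. ATF4 itself was lower by -0.66 on the cluster used, while the value on its other cluster (-0.29) did not pass. A link between ATF4 and these decreases was not tested. The chaperones HSPA5 (-0.05) and CRELD2 (0.05) did not pass, while other ER genes moved in either direction. PDIA4 and SDF2L1 were higher, as given above. Control arrays of DNAJB9 ran from 8.61 to 8.82 at 1 week and from 8.16 to 8.30 at 3 weeks. Those of HERPUD1 ran from 11.23 to 11.35 and then from 10.59 to 10.91. From 3 to 5 weeks, 12 genes were lower in control cells and 4 higher, against 21.8% and 31.7% of all clusters, with DNAJC3 (-1.37), SEL1L (-1.13) and ALDH1L2 (-1.11) having the largest differences. Centred on housekeeping genes the split from 3 to 5 weeks was 13 higher and 10 lower, so that no direction can be read from it. Each comparison with CSE is within a week, and the same control arrays enter both.

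**Figure D2:**
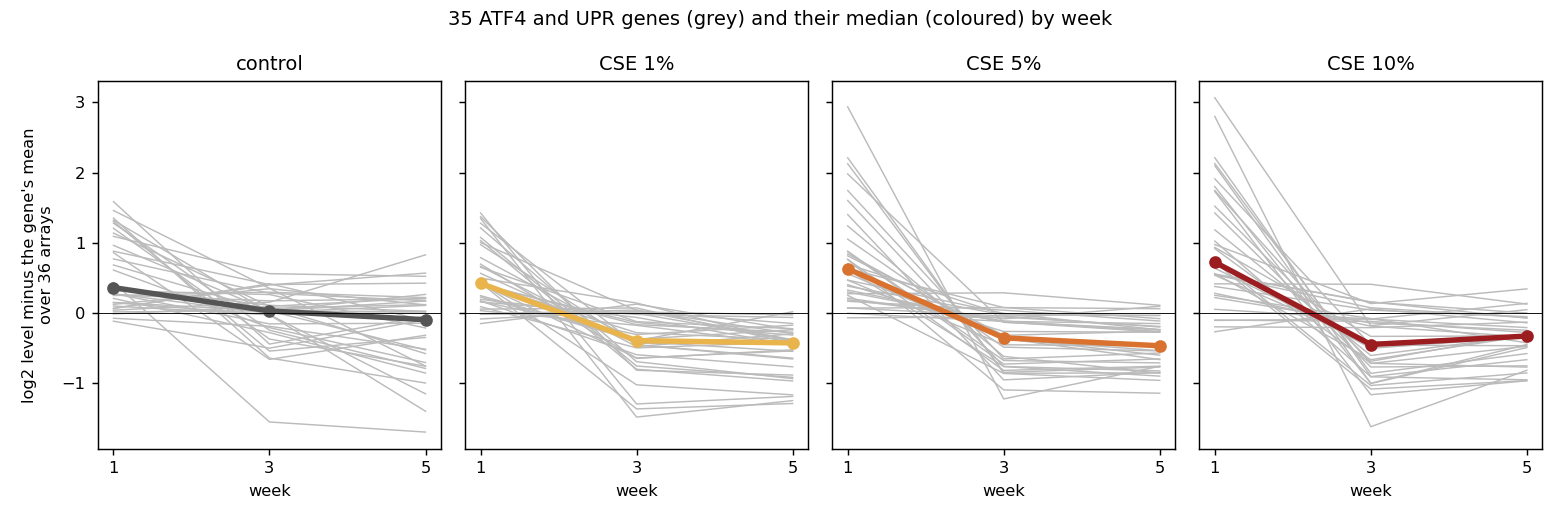
Mean log2 level of each of the 35 genes less its mean over 36 arrays (grey lines) and the median of the genes (coloured line) by week, for control, CSE 1%, CSE 5% and CSE 10%. The median is above 0 at 1 week in all 4 panels (0.36 in control, 0.42, 0.63 and 0.72 with rising CSE), and at 3 weeks it is -0.39, -0.35 and -0.45 with CSE 1%, 5% and 10%, against 0.03 in control.

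Among the 7 transcription factors, NUPR1 was the one that rose at 1 week. NUPR1 is a small stress-induced chromatin protein, and its log2 levels at 1 week were 6.51, 6.99 and 6.77 in control cells, 6.82, 7.03 and 7.03 with CSE 1%, 8.77, 8.48 and 8.59 with 5%, and 8.99, 8.76 and 8.59 with 10%. The arrays of 5% and 10% lay above all control and 1% arrays, with log2 fold changes of 1.86 and 2.02 (standard error 0.13 each, limma adjusted p = 7.2e-12 and 6.6e-13). At 3 weeks its levels had come down to between 6.11 and 6.59 in all 12 arrays, with differences from control of 0.00, -0.15 and 0.04 that did not pass. At 5 weeks the differences were -0.32, -0.47 and -0.37 at 1%, 5% and 10%, the first and the third of which were lost without control replicate 1 or 2, among other arrays (adjusted p up to 0.16 and 0.082). Against the week-3 controls these differences were 0.087, -0.07 and 0.035 and did not pass.

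ATF4 mRNA did not follow NUPR1. At 1 week it read 11.22, 11.29 and 11.51 in control cells, 11.18, 11.21 and 11.27 with CSE 1%, 11.28, 11.31 and 11.29 with 5%, and 11.34, 11.42 and 11.32 with 10%, so that the groups overlapped (differences of -0.12, -0.05 and 0.02). At 3 weeks the controls read 10.70, 10.70 and 10.64, and the exposed arrays 10.18, 10.16 and 10.33 with 1%, 10.34, 10.22 and 10.36 with 5%, and 10.06, 10.23 and 10.18 with 10%. All exposed arrays were below the controls there, with differences of -0.46, -0.38 and -0.53. The other cluster of ATF4 gave 0.10, -0.20 and -0.24 at 3 weeks and did not pass, so the decrease at 3 weeks holds for 1 of its clusters only. At 5 weeks both clusters passed at each concentration (-0.45, -0.62 and -0.37 on the cluster used, -0.45, -0.58 and -0.56 on the other). Against the week-3 controls the values on the cluster used were -0.45, -0.62 and -0.37, and all passed. On the other cluster the controls themselves were higher at 5 weeks than at 3 weeks (0.41, limma adjusted p = 0.0058). Its 5-week values were not set against the week-3 controls, so the decrease on that cluster rests on the 5-week controls. At 5 weeks ATF4 read 10.64, 10.68 and 10.72 in controls, between 10.16 and 10.29 with 1%, between 10.00 and 10.16 with 5%, and between 10.22 and 10.40 with 10%.

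DDIT3, which encodes CHOP, the factor that ATF4 raises in prolonged ER stress, fell with CSE 5% at 1 week. It read 9.45, 9.77 and 9.35 in control cells, 9.12, 9.10 and 9.23 with CSE 1%, 9.08, 8.39 and 8.21 with 5%, and 9.11, 9.32 and 8.94 with 10%. Every exposed array was below the lowest control, and the difference passed at 5% (-0.97, standard error 0.17, limma adjusted p = 1.5e-04) but not at 1% (-0.37) or 10% (-0.40). At 3 weeks all 12 arrays read between 7.08 and 7.54, and no difference passed. The 5-week controls read 8.20, 7.84 and 7.64 and the exposed arrays ran from 6.84 to 7.80, with decreases of 0.89 at 1% and 0.78 at 5% that did not pass against the week-3 controls (-0.49 and -0.38). CEBPB, a partner of ATF4, fell at 3 weeks to 9.95, 10.16 and 10.11 with 5% and to 9.89, 9.89 and 9.80 with 10%, against 10.61, 10.73 and 10.44 in control cells. These groups did not overlap, and the differences were -0.52 and -0.73. At 5 weeks it was lower at all 3 concentrations (-0.34, -0.59 and -0.45), although the value at 1% did not pass against the week-3 controls (-0.29). ATF5, a factor of the mitochondrial stress response, passed only at 5 weeks (-0.33, -0.46 and -0.47), and against the week-3 controls none of these values passed (-0.10, -0.23 and -0.24). Without CSE 1% replicate 3 of 5 weeks the values at 1% were lost for CEBPB and ATF5 (adjusted p = 0.059 and 0.14). XBP1 was lower with CSE 1% at 3 weeks (-0.37) and with 1% and 10% at 5 weeks (-0.24 and -0.43), and both values at 1% were lost without control replicate 3 of the week, among other arrays (adjusted p up to 0.18 and 0.17). CEBPG, another partner of ATF4, was higher at 5 weeks (0.33, 0.45 and 0.38), but its control replicate 1 stood at 8.26 beside 8.89 and 8.85, and without it no concentration passed (adjusted p = 0.36, 0.053 and 0.17). Against the week-3 controls its values were -0.17, -0.050 and -0.12, none of which passed, and against the controls of weeks 1 and 3 it was lower (-0.58, -0.46 and -0.53).

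Several stress effectors differed by week. STC2, a glycoprotein of the ER and of the secretions that ATF4 raises, was the one gene of the list that stood higher in 8 of the 9 comparisons with control. At 1 week it read 8.09, 8.42 and 8.13 in control cells, 8.29, 8.11 and 8.25 with CSE 1%, 10.09, 9.66 and 9.53 with 5%, and 10.83, 11.05 and 10.64 with 10%. The groups ran in order of concentration without overlap from 1% upward, with log2 fold changes of 0.00, 1.55 and 2.63 (standard error 0.16 each, limma adjusted p = 2.3e-08 at 5% and 2.8e-13 at 10%). At 3 weeks all levels were lower, at 6.44, 6.24 and 6.01 in controls, 6.65, 6.67 and 6.96 with 1%, 7.67, 7.48 and 7.79 with 5%, and 7.61, 7.57 and 7.63 with 10%. The exposed arrays were still above every control, by 0.53, 1.42 and 1.37. At 5 weeks the controls read 6.09, 6.46 and 5.71, the 1% arrays 6.77, 6.64 and 6.44, the 5% arrays 7.72, 7.35 and 7.56, and the 10% arrays 7.82, 7.84 and 7.82, with differences of 0.53, 1.45 and 1.74. The values at 1% were weak: the one at 3 weeks was lost without control replicate 2 (adjusted p = 0.064), control replicate 3 (0.15) or CSE replicate 3 (0.12), and the one at 5 weeks without control replicate 3 (adjusted p = 0.071). Against the week-3 controls the 5-week values at 5% and 10% were 1.31 and 1.60, and both passed, while that at 1% did not (0.39). Against the controls of weeks 1 and 3, STC2 was lower at 1% (-0.61), did not pass at 5% (0.32) and was higher at 10% (0.61).

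PPP1R15A, the phosphatase subunit GADD34 that removes phosphate from eIF2alpha, went one way at 1 week and the other way later. At 1 week it read 8.90, 9.20 and 9.59 in control cells, 10.15, 10.65 and 10.60 with CSE 1%, 9.72, 9.39 and 9.20 with 5%, and 11.01, 11.15 and 10.79 with 10%. The 1% and 10% arrays lay above all controls (1.24 and 1.76, standard error 0.17, limma adjusted p = 1.0e-05 and 3.6e-09), while those of 5% overlapped with them (0.21, not passed), so the response did not follow the concentration. By 3 weeks PPP1R15A read 9.22, 9.54 and 9.26 in controls, 8.66, 8.72 and 8.81 with 1%, 8.26, 8.41 and 8.31 with 5%, and 8.24, 8.12 and 8.20 with 10%. Every exposed array was below every control (-0.61, -1.01 and -1.15), and the value at 1% was lost without control replicate 2 or CSE replicate 1 (adjusted p up to 0.095). After 5 weeks PPP1R15A controls read 10.30, 9.85 and 9.90 and the exposed arrays ran from 8.17 to 8.99, a difference of -1.48, -1.79 and -1.27. Against the week-3 controls these were -0.81, -1.11 and -0.60, and all passed.

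TRIB3, a pseudokinase that ATF4 and CHOP raise and that holds back ATF4, fell with concentration. At 1 week it read 10.21, 10.60 and 10.67 in control cells, between 10.30 and 10.42 with 1%, between 10.03 and 10.21 with 5%, and between 9.92 and 10.28 with 10%, and the decreases at 5% and 10% (-0.37 and -0.41) were lost without control replicate 3 (adjusted p = 0.26 and 0.13) and without several other arrays. At 3 weeks it read 9.41, 9.61 and 9.33 in controls, 9.21, 9.33 and 9.64 with 1%, 8.45, 8.69 and 8.48 with 5%, and 8.22, 8.26 and 8.34 with 10%, so that the 1% arrays overlapped with the controls and the others lay below (-0.06, -0.91 and -1.18). At 5 weeks the differences were -0.59, -0.97 and -1.17. DDIT4 (REDD1), an inhibitor of mTORC1, was already lower with 5% at 1 week (-0.44), where the arrays of every concentration lay below the controls. Only the value at 5% passed there. DDIT4 was also lower at every concentration later (-0.46, -0.69 and -0.92 at 3 weeks, -0.75, -0.82 and -1.06 at 5 weeks). CHAC1 rose with CSE 10% at 1 week, to 9.86, 9.64 and 9.73 against 8.65, 9.02 and 9.09 in control cells (0.82), and SESN2, which reports leucine supply to mTORC1, rose there as well (0.66). CHAC1 was lower at 3 weeks with 5% and 10% (-0.41 and -0.32). The value at 10% was lost when any 1 of the 6 arrays was left out (adjusted p up to 0.19) and that at 5% without control replicate 2 or CSE replicate 3 (up to 0.079), and SESN2 did not pass at 3 or 5 weeks. At 5 weeks CHAC1 was lower with 1% and 5% (-0.62 and -0.50) and did not pass at 10% (-0.23). Against the week-3 controls its value at 1% passed (-0.42) and that at 5% did not (-0.30).

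**Figure D3:**
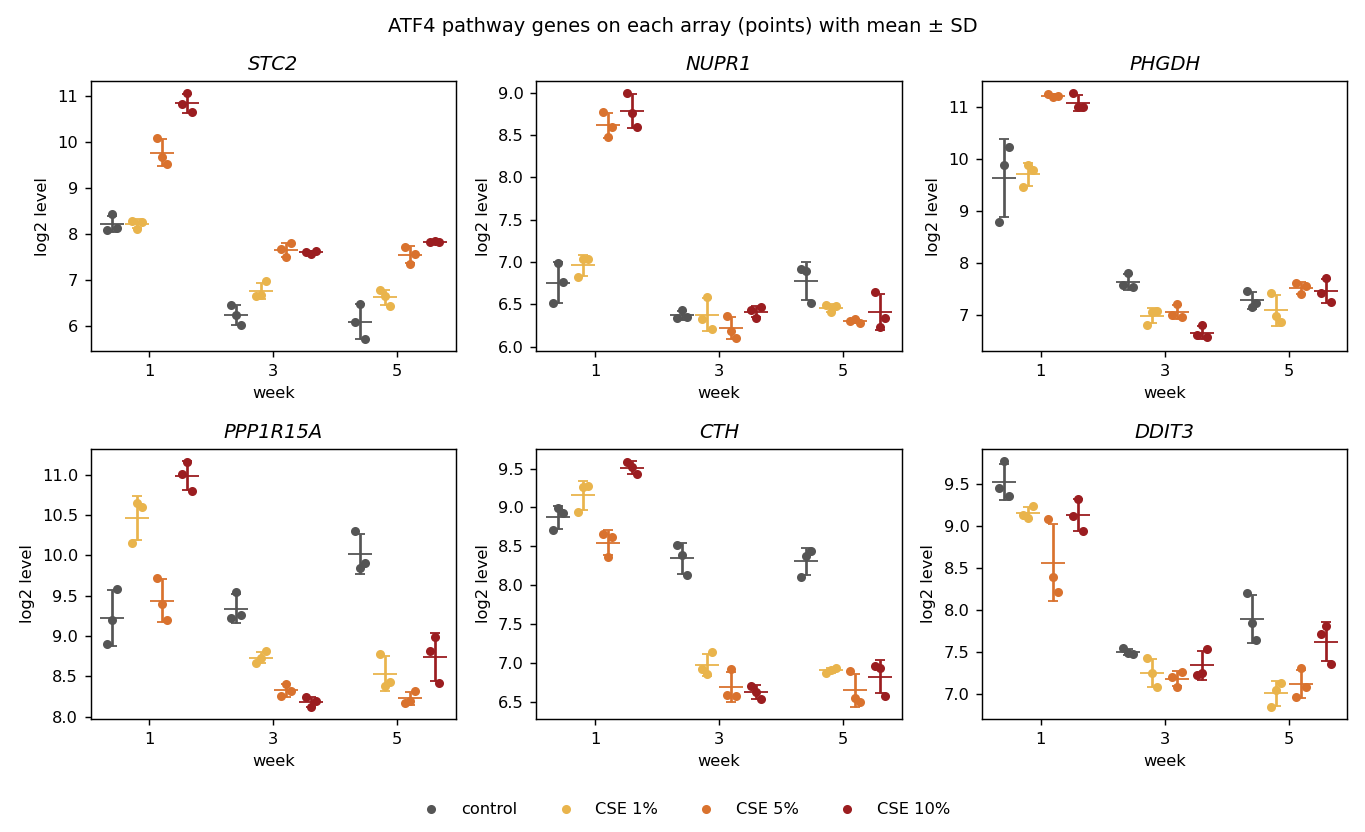
Log2 level of STC2, NUPR1, PHGDH, PPP1R15A, CTH and DDIT3 on each array (points) with the mean and SD of 3 arrays (bars), by week and by group from control to CSE 10%. STC2 at 10% lies at 10.64 to 11.05 in week 1 and at 7.57 to 7.84 later, PPP1R15A lies above control at 1 week with 1% and 10% and below it later, and CTH is below control at 3 and 5 weeks.

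Most of the enzymes were higher with CSE 10% at 1 week and lower at 3 weeks. With CSE 10% at 1 week, 6 of the 8 enzymes read were higher and 1 (PSPH, the last enzyme of serine synthesis) was lower, where 8.27% and 8.44% of all clusters were, while SHMT2 did not pass. With CSE 5%, 4 were higher (5.99% of all clusters). At 3 weeks 8 of 8 were lower with 1%, 6 with 5% and 7 with 10% (5.81%, 9.93% and 12.5% of all clusters), and none was higher. PSPH did not pass at 5% or 10% there (0.07 each). At 1% it was lower on the cluster used (-0.24), but its other cluster did not pass (-0.18). PHGDH, which opens serine synthesis from a glycolytic intermediate, read 8.78, 9.87 and 10.23 in 1-week controls, 9.46, 9.87 and 9.77 with CSE 1%, 11.24, 11.18 and 11.21 with 5%, and 11.25, 10.99 and 10.99 with 10%. The controls were spread widely, yet the 5% and 10% arrays lay above all of them (1.58 and 1.45, standard error 0.21). By 3 weeks PHGDH read 7.57, 7.81 and 7.53 in controls, 6.82, 7.06 and 7.08 with 1%, 7.003, 7.21 and 6.96 with 5%, and 6.61, 6.80 and 6.57 with 10%, all below the controls (-0.65, -0.58 and -0.98), although that of 5% did not pass and that of 1% was lost when any 1 of the 6 arrays was left out (adjusted p up to 0.17). PSAT1, the next enzyme of the pathway, followed the same course (0.07, 0.85 and 0.82 at 1 week, -1.24, -0.60 and -0.76 at 3 weeks), and so did ASNS with smaller values (-0.13, 0.40 and 0.54, then -0.38, -0.39 and -0.35). The values of ASNS at 3 weeks each passed by little, and were lost without control replicate 1 (adjusted p = 0.15, 0.089 and 0.13). The rise of ASNS at 5% in week 1 was lost without control replicate 1 or 3 or CSE replicate 1 (up to 0.19).

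ALDH1L2, a mitochondrial folate enzyme, separated CSE 1% from the higher concentrations at 1 week. It read 8.25, 8.66 and 8.27 in control cells, 7.48, 7.17 and 7.44 with CSE 1%, 9.31, 8.94 and 9.18 with 5%, and 9.07, 9.20 and 9.16 with 10%. It was thus lower at 1% (-1.03, standard error 0.13, limma adjusted p = 5.8e-06) and higher at 5% and 10% (0.75 each). At 3 weeks it read 7.53, 7.31 and 7.02 in controls, 5.51, 5.57 and 5.63 with 1%, 6.09, 5.89 and 6.26 with 5%, and 6.18, 6.08 and 5.83 with 10%. These were among the largest decreases of the list (-1.72, -1.21 and -1.26), again deepest at 1%. At 5 weeks the controls themselves read 6.11, 6.30 and 6.13, and only 1% differed from them (-0.53). Against the week-3 controls the 5-week values were -1.64, -1.20 and -1.01, and all passed.

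CTH, which makes cysteine from cystathionine, had decreases of a like size at all 3 concentrations in the later weeks. At 1 week it read 8.71, 8.99 and 8.93 in control cells, 8.94, 9.26 and 9.27 with CSE 1%, 8.66, 8.36 and 8.62 with 5%, and 9.59, 9.52 and 9.43 with 10%, a rise at 10% only (0.64). Later it lay far lower with CSE. The 3-week levels were 8.52, 8.39 and 8.13 in controls, 6.93, 6.85 and 7.14 with 1%, 6.58, 6.92 and 6.58 with 5%, and 6.71, 6.63 and 6.54 with 10%. No exposed array came near the controls, and the differences were -1.37, -1.65 and -1.72 (standard error 0.13, limma adjusted p = 1.0e-08, 9.2e-11 and 4.0e-11). The 5-week controls read 8.11, 8.38 and 8.43 and the exposed arrays lay between 6.50 and 6.96 (-1.40, -1.66 and -1.49), and against the week-3 controls the values were -1.44, -1.70 and -1.52. SHMT2, the mitochondrial serine hydroxymethyltransferase, fell with concentration at 3 weeks (-0.88, -1.13 and -1.44) and at 5 weeks (-0.72, -1.08 and -1.28), with no change at 1 week (-0.22, -0.01 and -0.11). MTHFD2, its partner in the folate cycle, was higher with 10% at 1 week (0.46) and lower at 3 weeks (-0.44, -0.65 and -0.80).

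At 1 week the amino acid transporters that passed were higher, and in later weeks SLC38A2 alone of the 4 was higher while the others were lower. SLC38A2, a carrier of small neutral amino acids, read 12.61, 12.52 and 12.35 in 1-week controls, 12.99, 12.91 and 13.02 with CSE 1%, 12.74, 12.69 and 12.77 with 5%, and 13.05, 13.16 and 13.14 with 10%. All exposed arrays were above the controls, by 0.48, 0.24 and 0.62, of which the first and the third passed. It was higher with 10% at 3 weeks (0.34) and with 5% and 10% at 5 weeks (0.40 and 0.51), the 5-week values falling to 0.07 and 0.19, not passed, against week-3 controls. SLC7A1, the carrier of arginine and lysine, read 9.72, 9.99 and 9.91 in 1-week controls, 9.95, 9.94 and 10.13 with 1%, 10.50, 10.40 and 10.15 with 5%, and 10.47, 10.45 and 10.36 with 10%, so that 5% and 10% were higher (0.48 and 0.55), the first being lost without CSE replicate 1 (adjusted p = 0.060). At 3 weeks it read 9.66, 9.85 and 9.35 in controls, 9.45, 9.67 and 9.83 with 1%, 9.13, 9.13 and 9.19 with 5%, and 8.84, 8.67 and 8.88 with 10%. There 5% and 10% were lower (-0.47 and -0.83), the 5% value being lost without control replicate 2 (also 0.060). SLC7A5 and SLC3A2, the light and heavy chains of the leucine carrier LAT1, did not pass at 1 week except SLC3A2 with 10% (0.38). SLC7A5 was lower at all concentrations at 3 weeks (-0.48, -0.30 and -0.36) and at 5 weeks (-0.38, -0.47 and -0.54), with 5-week levels of 11.90, 11.91 and 11.83 in controls and between 11.26 and 11.72 in exposed cells. The SLC7A5 values at 5% and 10% in week 3 were lost without control replicate 2, among other arrays (adjusted p up to 0.33 and 0.14), and that at 1% in week 5 without CSE replicate 3 (0.062). SLC3A2 was lower with 5% and 10% at 3 weeks (-0.29 and -0.44) and with all 3 at 5 weeks (-0.44, -0.45 and -0.51), the first of these values being lost without control replicate 2 or CSE replicate 1 or 3 (up to 0.17).

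The ER chaperones did not rise as a group. Of the 7 genes, 1 was higher and 2 lower with CSE 10% at 1 week (8.27% and 8.44% of all clusters), and 5 were lower at each concentration at 3 weeks (5.81%, 9.93% and 12.5% at 1%, 5% and 10%). HSPA5 read 12.02, 12.05 and 12.14 in 1-week controls, 11.75, 11.82 and 11.79 with CSE 1%, 12.10, 11.93 and 11.87 with 5%, and 12.16, 12.14 and 12.10 with 10%. Only 1% stood apart from control (-0.28), a value that was lost without control replicate 3 (adjusted p = 0.10) among others. At 3 weeks HSPA5 read 12.13, 12.05 and 11.87 in controls, 11.63, 11.49 and 11.61 with 1%, 11.69, 11.63 and 11.61 with 5%, and 11.80, 11.76 and 11.83 with 10%, all below the controls (-0.44, -0.38 and -0.22). The decrease was smallest at 10%, where it was lost without control replicate 1 (adjusted p = 0.15) and under the housekeeping centring (-0.02). At 5 weeks its controls read 11.35, 11.59 and 11.69 and the differences were -0.24, -0.05 and 0.16, of which the first passed, though not without control replicate 3 (adjusted p = 0.078). HSPA5 was lower at all 3 concentrations when set against the week-3 controls (-0.71, -0.53 and -0.32).

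SDF2L1, a stabilizer of the chaperone complexes around BiP, was lower at every concentration at 3 weeks. It read 7.39, 7.65 and 7.61 with CSE 1%, 7.37, 7.58 and 7.46 with 5%, and 7.25, 7.28 and 7.43 with 10%, beside 7.74, 8.14 and 7.90 in controls. The exposed groups overlapped with each other. All exposed arrays lay below the controls (-0.38, -0.46 and -0.61), and at 5 weeks it was lower as well (-0.72, -0.76 and -0.70). The value at 1% in week 3 was lost without control replicate 2 or CSE replicate 1 (adjusted p up to 0.17). CRELD2, a secreted ER stress protein, was lower in all 9 comparisons, with differences between -0.25 and -0.50. Its values at 1% and 5% in week 1 were each lost without 5 of the 6 arrays (adjusted p up to 0.17 and 0.12), and those at 1% in weeks 3 and 5 without 2 arrays each, among them control replicate 2 of 3 weeks and control replicate 3 of 5 weeks (up to 0.091 and 0.083). HYOU1, a large chaperone of the HSP70 family, was lower in the 6 comparisons at 3 and 5 weeks (-0.35 to -0.51), although the 3-week values at 1% and 5% were lost without control replicate 2 (adjusted p = 0.33 and 0.052) and the 5-week value at 10% without CSE replicate 1 (0.053). PDIA4, a disulfide isomerase, was lower with 10% at 1 week (-0.33) and with all 3 at 3 weeks (-0.29, -0.34 and -0.36), that at 1% being lost without control replicate 1 (adjusted p = 0.058). The 6 genes with an ERSE or ERSE-II in the window (HSPA5, XBP1, CRELD2, HERPUD1, HYOU1 and SDF2L1) gave 54 values against control, of which 0 were higher, 36 lower and 18 not past the test. The 6 genes with a CARE gave 10 higher, 24 lower and 20 not past of 54, and the 20 genes read with no element gave 41, 64 and 75 of 180. HERPUD1 has both an ERSE-II and a CARE, so its values are counted in both groups. Over all clusters the share of lower calls ran from 1.90% (CSE 1% at 1 week) to 40.3% (CSE 5% at 5 weeks). The share of higher calls ran from 3.41% to 23.0% in the same 2 comparisons. This split was made after the values were seen and is a description.

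Of the DNAJ proteins, which hand substrates to BiP, DNAJB9 was higher with CSE 5% and 10% at 1 week, and DNAJC3 passed at 5 weeks only. DNAJB9 (ERdj4) read 8.61, 8.82 and 8.71 in 1-week controls, 8.70, 8.65 and 8.68 with CSE 1%, 9.29, 8.95 and 9.36 with 5%, and 9.46, 9.47 and 9.51 with 10%. The arrays of 5% and 10% lay above the controls (0.49 and 0.77), the first value being lost without control replicate 1 or CSE replicate 1 or 3 (adjusted p up to 0.081). At 3 weeks it read 8.30, 8.16 and 8.21 in controls, 8.05, 7.82 and 7.86 with 1%, 8.41, 8.52 and 8.51 with 5%, and 8.79, 8.61 and 8.51 with 10%, and only 10% passed (0.41), a value lost without control replicate 2 or CSE replicate 1 (adjusted p = 0.071 and 0.096). At 5 weeks it read 7.27, 7.90 and 7.78 in controls, 7.42, 7.81 and 7.99 with 1%, 8.51, 8.41 and 8.48 with 5%, and 8.83, 8.97 and 8.75 with 10%. The rises of 0.82 at 5% and 1.20 at 10% became 0.25 (not passed) and 0.62 (limma adjusted p = 5.9e-04) against the week-3 controls. DNAJC3 (P58IPK), which also restrains PERK, read 6.79, 7.96 and 7.85 in 5-week controls, 7.97, 8.66 and 8.81 with 1%, 9.07, 9.06 and 8.997 with 5%, and 9.15, 8.93 and 9.10 with 10%. The arrays of 5% and 10%, at 8.93 to 9.15, lay within the range of the controls of the earlier weeks (8.73 to 9.22), and control replicate 1 was the lowest of the 36 arrays. The differences from the 5-week controls were 0.94, 1.51 and 1.52, and those from the week-3 controls were -0.43, 0.14 and 0.15, none of which passed. At 1 and 3 weeks none of its 6 values passed.

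**Figure D4:**
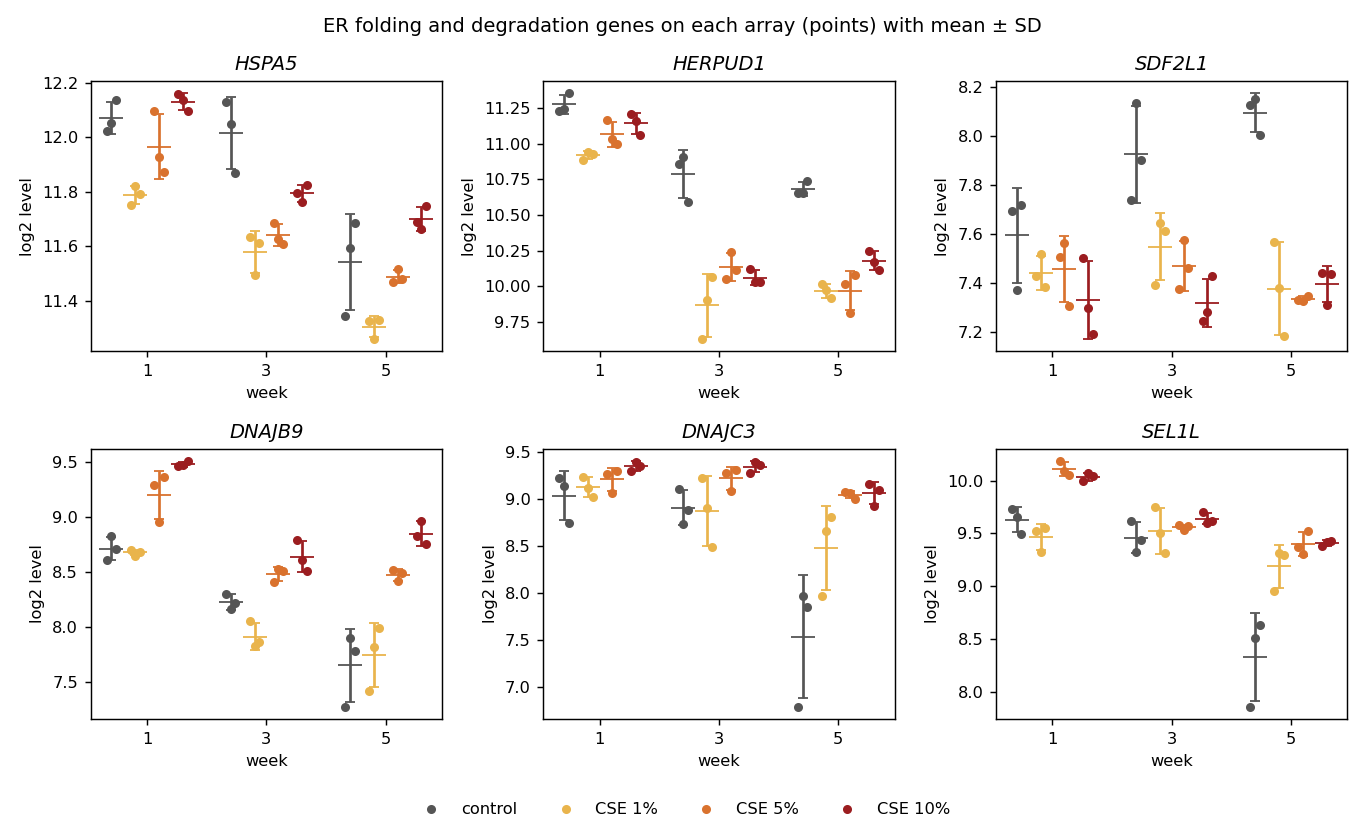
Log2 level of HSPA5, HERPUD1, SDF2L1, DNAJB9, DNAJC3 and SEL1L on each array (points) with the mean and SD of 3 arrays (bars), by week and by group from control to CSE 10%. HERPUD1 and SDF2L1 lie below control at 3 and 5 weeks, DNAJB9 rises with concentration at 1 week, and the 5-week controls of DNAJC3 and SEL1L are the low points of their panels (6.79 and 7.86).

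Of the degradation genes, HERPUD1 fell at 3 and 5 weeks, and EDEM1 and SEL1L were higher at 1 week with CSE 5% and 10%. HERPUD1 read 11.23, 11.24 and 11.35 in 1-week controls, 10.89, 10.94 and 10.93 with CSE 1%, 11.16, 11.03 and 11.00 with 5%, and 11.21, 11.16 and 11.06 with 10%, and only 1% passed (-0.35), though not without control replicate 3 or CSE replicate 1 or 3 (adjusted p up to 0.090). By 3 weeks HERPUD1 read 10.86, 10.91 and 10.59 in controls, 9.63, 9.91 and 10.07 with 1%, 10.05, 10.24 and 10.12 with 5%, and 10.12, 10.03 and 10.03 with 10%. Every exposed array was lower (-0.92, -0.65 and -0.73), as at 5 weeks (-0.71, -0.71 and -0.50). EDEM1, a mannosidase-like protein that pulls misfolded glycoproteins out of folding, read 8.38, 8.28 and 8.08 in 1-week controls, 8.30, 8.30 and 8.34 with 1%, 8.79, 8.75 and 8.63 with 5%, and 8.78, 8.77 and 8.84 with 10%, higher at 5% and 10% (0.48 and 0.56). SEL1L, the scaffold of the HRD1 ligase, read 9.73, 9.66 and 9.50 there in controls, 9.53, 9.33 and 9.56 with 1%, 10.18, 10.09 and 10.06 with 5%, and 10.00, 10.07 and 10.04 with 10%, and rose by 0.48 and 0.41. The SEL1L value at 10% was lost without control replicate 3 (adjusted p = 0.16) and that at 5% without the same array (adjusted p = 0.098), among other arrays. Neither gene passed at 3 weeks. At 5 weeks SEL1L read 7.86, 8.51 and 8.63 in controls, 8.95, 9.32 and 9.30 with 1%, 9.38, 9.30 and 9.53 with 5%, and 9.38, 9.42 and 9.43 with 10%. These differences (0.86, 1.07 and 1.08) became -0.27, -0.056 and -0.050 against the week-3 controls and none passed. For EDEM1 the 5-week values of 0.34 at 5% and 0.51 at 10% became -0.33, which passed as a decrease, and -0.16, which did not. Without control replicate 1 of 5 weeks the EDEM1 value at 5% was 0.17 (adjusted p = 0.11).

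**Figure D5:**
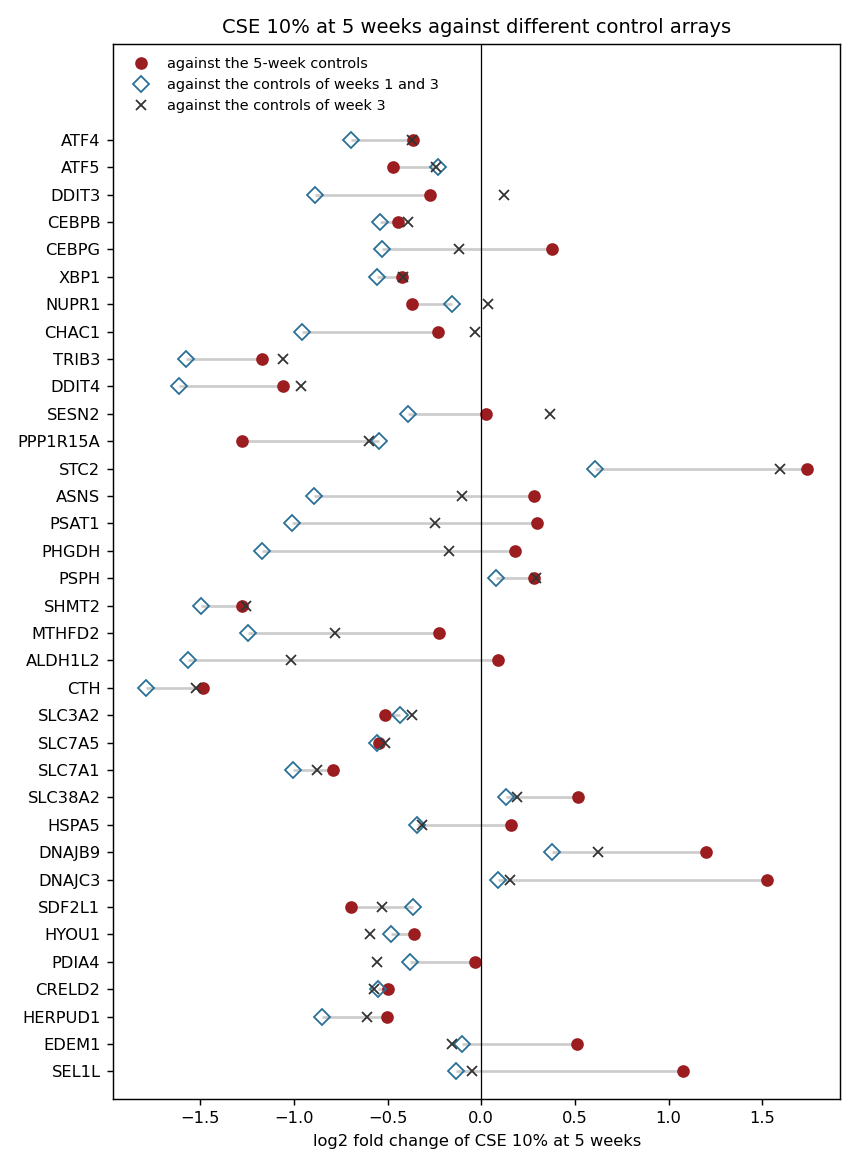
Log2 fold change of CSE 10% at 5 weeks for each of the 35 genes against the 5-week controls (filled circles), the controls of weeks 1 and 3 (open diamonds) and the week-3 controls (crosses). DNAJC3 stands at 1.52 with the 5-week controls and at 0.15 with the week-3 controls, and SEL1L at 1.08 and -0.050, while STC2, CTH, SHMT2 and TRIB3 keep their side of 0 with each baseline.

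Concentrations of CSE were also compared with each other. Between CSE 10% and CSE 1%, 17 of the 35 genes differed at 1 week (11.9% of all clusters), 16 of them higher at 10%, with STC2 (2.63), NUPR1 (1.82) and ALDH1L2 (1.78) in front. Between CSE 10% and CSE 5%, 7 differed (3.27%), led by PPP1R15A (1.55), STC2 (1.08) and CTH (0.97), and without CSE 10% replicate 2 there were 4. At 3 weeks 12 differed between 10% and 1% (12.3%), 5 higher and 7 lower at 10%, among them TRIB3 (-1.12), SLC7A1 (-0.86) and STC2 (0.84). The split was 8 and 7 under cyclic loess and 9 and 6 under the housekeeping centring, so the balance of directions was not stable. Between 10% and 5% at 3 weeks, 0 differed (0.967% of all clusters), with 5 at an unadjusted p under 0.05. At 5 weeks 13 differed between 10% and 1% (8.67%), 10 of them higher at 10%, with STC2 (1.21), DNAJB9 (1.11) and PSAT1 (0.75) first, although without CSE 1% replicate 1 there were 7. These values do not use the control arrays. Between 10% and 5%, XBP1 alone differed at 5 weeks (-0.39, 2.22% of all clusters). It was lost on leaving out any of the 6 arrays but CSE 10% replicate 3. Without CSE 10% replicate 1 there were 0 genes, without replicate 3 there were 4, and under cyclic loess or the housekeeping centring there were 2 higher and 1 lower genes.

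The effect of CSE was set against itself between weeks by an interaction term. The effect at 3 weeks differed from that at 1 week for 7 genes at CSE 1% (4.90% of all clusters), 14 at 5% (3.23%) and 22 at 10% (9.13%), and it was the lower one at 3 weeks for 7, 14 and 21 of these, the exception being PSPH at 10% (0.45). For PPP1R15A the log2 effect of CSE 10% was lower at 3 weeks by -2.91 (standard error 0.24, limma adjusted p = 1.4e-09), and for PHGDH and CTH by -2.42 and -2.36. For NUPR1 the effect of CSE 5% was lower by -2.01. STC2 changed less (0.53, -0.13 and -1.26 at 1%, 5% and 10%), and the value at 10% alone passed. Between 5 weeks and 1 week the effect differed for 15 genes at 1% (21.0%), 23 at 5% (30.7%) and 27 at 10% (29.6%), with 12, 20 and 23 of them lower. The exceptions were DNAJC3 (0.85, 1.33 and 1.21) and SEL1L (1.02, 0.59 and 0.67) at all concentrations, PSPH at 5% and 10% (0.33 and 0.66), CEBPG at 1% (0.52) and PDIA4 at 10% (0.30). With the controls of weeks 1 and 3 for 5 weeks, 0, 0 and 1 genes were higher and 24, 26 and 27 lower. DNAJC3 was then -0.58, -0.10 and -0.23, none passed, and SEL1L was -0.19, not passed, -0.62 and -0.54. CEBPG at 1% (-0.39) and PDIA4 at 10% (-0.05) no longer passed. Without control replicate 1 of 1 week the counts at 1% were 4 for 3 weeks and 6 for 5 weeks, and the housekeeping centring gave 6 higher and 6 lower genes for 5 weeks and 1 higher and 4 lower for 3 weeks.

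Other genes of the pathway were read for comparison. Of 10 genes for sensors and eIF2alpha kinases, 3 were higher with CSE 5% and 3 with 10% at 1 week (5.99% and 8.27% of all clusters). They were led by ERN1, which encodes IRE1 (0.62 and 0.64), and by PPP1R15B, the constitutive counterpart of PPP1R15A (0.75 at 10%). ERN1 stayed higher at 3 weeks (0.46, 0.46 and 0.43), and so did MBTPS1, the site-1 protease that cuts ATF6 (0.44, 0.49 and 0.39). At 5 weeks 7 of the 10 were higher at each concentration (20.3%, 23.0% and 21.9% of all clusters), with MBTPS2 (1.21, 1.56 and 1.57) and EIF2AK2 (1.85 and 1.84 at 5% and 10%) first. In control cells 8 of the 10 were lower at 5 weeks than at 3 weeks (21.8% of all clusters), and these control arrays enter both comparisons. Of 19 further ER folding and secretory genes, 6 were lower and 1 higher with CSE 10% at 1 week (8.44% and 8.27%), including PDIA6 (-0.68) and CALR (-0.37). At 3 weeks 8, 8 and 6 of these 19 were lower with 1%, 5% and 10% (5.81%, 9.93% and 12.5%), while ERO1B was higher with 10% (0.93). Against the 5-week controls the 2 genes of smallest p were ERO1B (1.04) and SYVN1 (-0.62) with 1%. They were ERO1B (1.61) and DNAJC10 (1.68) with 5%, and ERO1B (1.81) and DERL2 (0.70) with 10%. Of 12 aminoacyl-tRNA synthetases, which ATF4 also raises, 2 and 3 were higher with 5% and 10% at 1 week (5.99% and 8.27%), such as GARS1 (0.39 and 0.54). At 3 weeks 4, 6 and 6 of them were lower (5.81%, 9.93% and 12.5%), such as MARS1 (-0.64 at 10%), and in control cells 9 of the 12 were lower at 3 weeks than at 1 week (5.27%). Against the 5-week controls the 2 synthetases of smallest p were higher, LARS1 (0.73, 0.93 and 1.09) and TARS1 (0.73, 1.10 and 1.04). Of 18 further ATF4 targets, 5 and 6 were higher with 5% and 10% at 1 week (5.99% and 8.27%), among them INHBE (0.57 and 0.65) and GDF15 (0.66 at 10%), and 0 were lower. At 3 weeks 4, 6 and 7 were lower (5.81%, 9.93% and 12.5%) and 0, 2 and 2 higher (5.67%, 9.70% and 14.0%), and ATF3, a stress factor downstream of ATF4, fell by 0.74 with 5% and by 1.01 with 10%. Against the 5-week controls the 2 targets of smallest p were lower, ATF3 (-0.75, -1.34 and -1.18) and NFIL3 (-0.70, -0.86 and -0.93). Genes picked by p do not give the direction of their list at 5 weeks. None of these other genes was set against the week-3 controls.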

How the data were processed

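RNA of 36 A549 cultures, 3 per group, had been hybridized to Affymetrix Human Gene 1.0 ST arrays. The deposited values are log2 levels that the authors made with RMA (background correction, quantile normalization and median summary), and the submitters' processing notes name R 2.11.0 and limma. They ran from 2.29 to 14.5, with array medians from 6.72 to 6.91. No pair of arrays correlated above 0.996, so none was taken for a repeat. A level is compared within a gene only, and no bound from background was available, since the values hold no detection call.

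The log2 values were fitted with limma 3.58.1 (R 4.3.3), 1 mean per group over all 36 arrays with 24 residual degrees of freedom, and p was adjusted by the Benjamini-Hochberg method over 33297 transcript clusters. Of these, 19460 had 1 symbol, 1754 several and 12083 none in the platform annotation. A change was called at an adjusted p under 0.05. B used a prior proportion of 0.01. Groups came from titles. On simulated data of the size of the comparison of CSE 5% with control at 3 weeks, in sets of 50 of the 33297 clusters, the fit recovered 88% of log2 changes of 1 and 66% of changes of 0.585. Far fewer clusters changed there than in the real comparison, which called 9.70% higher and 9.93% lower. These shares therefore do not give the recovery in the real data.

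The 36 genes and all lists were chosen with earlier results of these data known. Values per array are given for ATF4, DDIT3, HSPA5 and, in each role, up to 3 genes with the largest changes past the test. Named for each comparison with control are the genes of smallest p, up to 3 in each direction, in other contrasts up to 3 with the largest difference, and from other lists up to 2. Further genes were named after their values were seen. The alternatives were cyclic loess, centring on 18 housekeeping genes of 23 listed, the 60% brightest clusters, the mean over a gene's clusters, a fit per week, the study's thresholds, a replicate block, other controls for 5 weeks and leaving out each array. The week-3 baseline was added after seeing the data.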

Additional observations from a re-analysis of the deposited data

Results flagged for a closer look

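The effect of CSE on several genes differed between weeks, as tested by the interaction term in limma (the log2 effect at the later week less that at 1 week, with adjusted p over all clusters). Each difference uses the control arrays of both weeks, and those of 5 weeks carry the conflicting labels. At 3 weeks against 1 week, the effect of CSE 1% differed by -1.84 for PPP1R15A (adjusted p = 8.8e-06), -1.65 for CTH (1.2e-06) and -1.30 for PSAT1 (2.5e-05). The effect of CSE 5% differed by -2.16 for PHGDH (4.6e-05), -2.01 for NUPR1 (4.2e-08) and -1.96 for ALDH1L2 (1.4e-07). The effect of CSE 10% differed by -2.91 for PPP1R15A (1.4e-09), -2.42 for PHGDH (2.0e-06) and -2.36 for CTH (7.6e-10). At 5 weeks against 1 week, the effect of CSE 1% differed by -2.72 for PPP1R15A (6.4e-09), -1.68 for CTH (3.6e-07) and 1.02 for SEL1L (4.7e-04). The effect of CSE 5% differed by -2.33 for NUPR1 (5.8e-10), -2.00 for PPP1R15A (1.1e-06) and -1.34 for PHGDH (0.0017). The effect of CSE 10% differed by -3.03 for PPP1R15A (3.6e-10), -2.39 for NUPR1 (1.5e-10) and -2.12 for CTH (3.1e-09). Among these 18 values, that of SEL1L was -0.19 with the controls of weeks 1 and 3 in place of the 5-week controls.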

How the results depend on the processing

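Of the single values named, 207 of 227 stayed past the test in the same direction under housekeeping centring, 216 under cyclic loess and 227 with the 60% brightest clusters, and none reversed under these 3. The brightness filter kept every gene read and left the log2 fold changes as they were, so it could reverse none. The values at 5 weeks depended on the controls. With the controls of weeks 1 and 3, ASNS at CSE 10% was -0.89, CEBPG -0.58, -0.46 and -0.53 at 1%, 5% and 10%, DNAJC3 at 1% -0.49, EDEM1 -0.28 at 5% and -0.11 at 10%, PDIA4 at 5% -0.18, PSAT1 at 10% -1.01, SEL1L -0.35, -0.14 and -0.14, the change of the SEL1L effect at 1% since week 1 -0.19, and STC2 at 1% -0.61, all turned in sign. With the week-3 controls, ASNS at 10% was -0.10, CEBPG -0.17, -0.050 and -0.12, DNAJC3 at 1% -0.43, EDEM1 -0.33 at 5% and -0.16 at 10%, NUPR1 0.087 at 1% and 0.035 at 10%, PDIA4 at 5% -0.36, PSAT1 at 10% -0.25, and SEL1L -0.27, -0.056 and -0.050. The cause was not tested.

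The count of changed genes among the 35 moved in these cases, by construction with the stricter study thresholds and otherwise with the cause not tested. For CSE 1%, 5% and 10% the study thresholds left 2, 3 and 4 genes in week 1, then 3, 5 and 6 in week 3, then 2, 6 and 9 in week 5. Housekeeping centring gave 11 genes for CSE 1% at 1 week and 10 for CSE 1% at 3 weeks. For CSE 10% against 5% at 5 weeks it gave 3, as did cyclic loess and the 60% brightest clusters, while a separate fit per week gave 0. The separate fit gave 7 for CSE 10% against 1% at 5 weeks, and the controls of weeks 1 and 3 gave 24 for the change of the 1% effect from week 1 to week 5. The 60% brightest clusters gave 8 higher and 7 lower genes for 10% against 1% at 3 weeks and 10 and 5 at 5 weeks, and the separate fit 6 and 1 for 10% against 5% at 1 week.

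With 1 array left out, the counts were 3 to 6, 8 to 13 and 19 to 21 for CSE 1%, 5% and 10% in week 1, 11 to 18, 16 to 22 and 20 to 24 in week 3, and 19 to 26, 25 to 27 and 24 to 27 at 5 weeks. They were 15 to 17, 9 to 13 and 7 to 12 for 10% against 1% at 1, 3 and 5 weeks, and 4 to 7, 0 to 0 and 0 to 4 for 10% against 5%. For the change of the effect since week 1 they were 4 to 10, 11 to 17 and 20 to 24 at 3 weeks and 6 to 19, 19 to 24 and 20 to 27 at 5 weeks. For controls they were 18 to 22 (3 against 1 week) and 11 to 15 (5 against 3 weeks).

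With the replicate number as a block, 220 of the 227 single values stayed past the test, and CSE 10% at 5 weeks had 9 higher and 17 lower genes. No clear pairing by number was seen: correlations of same-numbered deviations ran from -0.208 to 0.504, and 1, 3 and 4 of 18 pairs at 1, 3 and 5 weeks exceeded 0.1. With 3 arrays per group, a pairing of some groups could have gone unseen. Signal over background could not be judged from these values.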
